A study of Mus musculus with 6 samples.

Results

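Iron storage, import and export are described here through 10 genes of Raw 264.7 cells, a mouse macrophage-like line. They are the ferritin chains Fth1 and Ftl1, the exporter Slc40a1, the import genes Tfrc, Trf, Slc11a2 and Slc11a1, the heme-degrading enzyme Hmox1, and the iron regulatory proteins Ireb2 and Aco1. They were chosen by symbol from the 22192 rows of a table of read counts per gene. All 10 had a row, and all 10 were abundant enough to test, against 11686 of the 22192 genes. Of 6 libraries, 3 came from cells kept for 24 h with 200 µg/mL of ASPS-A1, which is an acidic leaf polysaccharide of Acanthopanax senticosus. The other 3 were labelled control, and the labels do not say what the control medium held. The treated libraries are titled ASPS-A1, A2 and A3, but their treatment field reads ASPS-A1 throughout, and that field set the groups. All libraries come from the same line, whose strain label is BALB/c, and nothing in the labels ties the libraries to separate cultures, so p-values measure the spread between these libraries.

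Macrophages take in iron on transferrin and from engulfed red cells, and return it to plasma through ferroportin. Inside the cell, ferritin shells built of heavy and light chains hold iron that is not in use. Iron regulatory proteins sense the labile iron and bind hairpins in messenger RNA called iron-responsive elements. When iron is scarce this binding blocks translation of ferritin and ferroportin and protects the transferrin receptor message from decay. In infection and inflammation, macrophages are known for keeping iron back from plasma. Counts of messenger RNA do not show the translational step.

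The iron-responsive elements are shown because, within the group, the strict shape searched for was found in the storage, export and transferrin-receptor genes. An element was taken as a C, 5 bases, the loop CAGTGN and 5 bases that pair with the first 5, G-T pairs included. The search read the strand of the messenger in the untranslated regions (UTRs) of GENCODE M21 transcripts (mouse GRCm38). Capitals mark the unpaired C and the loop, and each line runs 5′ to 3′.
Fth1, 5′ UTR: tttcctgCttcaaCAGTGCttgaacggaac
Ftl1, 5′ UTR: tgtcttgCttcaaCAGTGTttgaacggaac
Slc40a1, 5′ UTR: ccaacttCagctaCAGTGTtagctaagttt
Tfrc, 3′ UTR: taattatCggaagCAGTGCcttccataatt
Tfrc, 3′ UTR: acattatCgggagCAGTGTcttccataatg
Tfrc, 3′ UTR: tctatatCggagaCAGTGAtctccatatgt
Tfrc, 3′ UTR: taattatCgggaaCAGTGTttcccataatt
The Fth1 and Ftl1 elements share 27 of 30 bases, while Fth1 and Slc40a1 share 13 of 30. The unpaired C lies at base 93 of the 224-base 5′ UTR of Fth1, at base 84 of 253 in Ftl1 and at base 96 of 319 in Slc40a1. In Tfrc the unpaired C of the 4 elements found lies at bases 892, 1271, 1336 and 1383 of its 2461-base 3′ UTR. These letters were not found in the UTRs of the other 6 genes. The search misses any element whose 5 pairs are broken by a bulge or mismatch, so it does not show that those genes lack one. Nor does it show that Tfrc holds only these 4. Of all 5′ UTRs searched (17952), 0.106% held such an element, and of all 3′ UTRs (18696), 0.535% did.

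In cells given ASPS-A1, messages for iron storage were higher and the message for the exporter was lower. Among the 4 import genes, 3 rose, while Trf, a plasma carrier counted only in traces, fell. Of the 10 genes, 5 rose and 3 fell at an adjusted p under 0.05 (edgeR's quasi-likelihood test, Benjamini-Hochberg adjustment over all genes tested). Among all 11686 genes tested, 65.3% passed that threshold, 32.4% higher and 33.0% lower. Levels are in CPM, the count per 1000000 counts of the TMM-scaled library. The median log2 fold change was 0.16 over the 10 genes and −0.021 over all genes tested. The libraries of the groups did not overlap for 8 of the 10 genes, beside 68.5% of all genes tested. The share of called genes is thus not far from the background, and what follows turns on size and direction by role. With scaling by library totals alone, the median moved to −0.22 over all genes tested and to −0.035 over the 10 genes. Under that scaling 5 of the 10 genes rose and 5 fell, and 2529 of all genes were higher and 5454 lower. In bulk RNA, fewer cells with a message and less message per cell cannot be told apart.

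**Figure D1:**
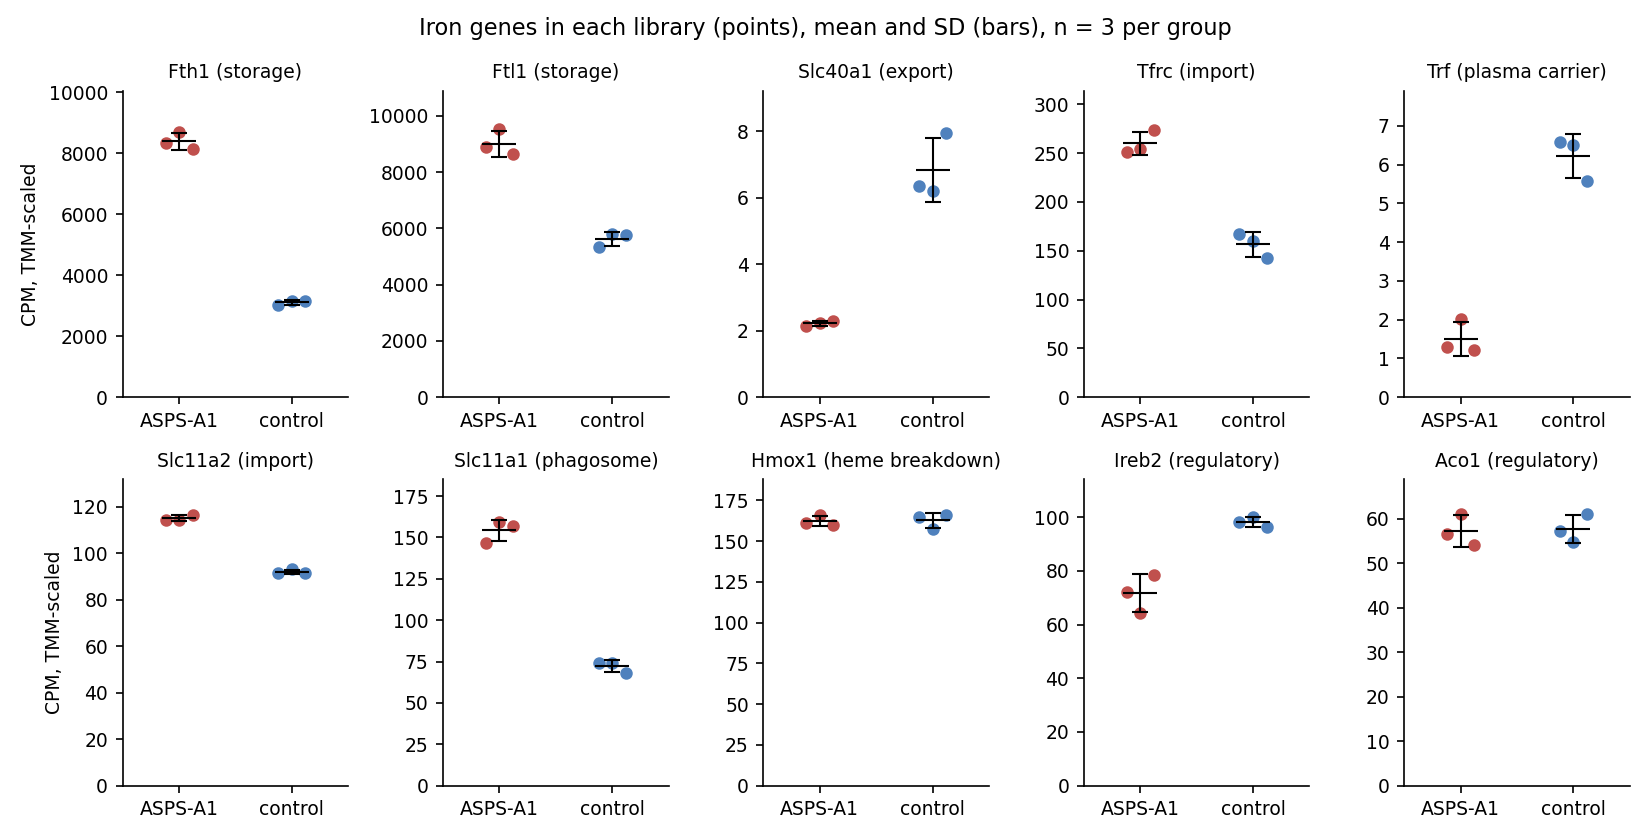
Level of each of the 10 iron genes in CPM (each vertical axis starts at 0), with 1 point per library, ASPS-A1 left of control, and bars for the mean and SD (n = 3 each). The groups do not overlap for any gene except Hmox1 and Aco1. The largest gap in CPM is in the ferritin chains, and the largest ratio is in Trf.

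Fth1 encodes the ferritin heavy chain, whose ferroxidase centre oxidises iron as it enters the shell. It had 8343, 8691 and 8126 CPM with ASPS-A1, against 3023, 3167 and 3147 CPM in control. Every ASPS-A1 library was far above every control library, and the SD within groups was 285 and 78.1 CPM. Fth1 rose 2.69-fold (log2 fold change 1.43 ± 0.05 SE, adjusted p = 4.75e-29, edgeR). By mean CPM it stood at rank 4 among the genes tested with ASPS-A1 and at rank 20 in control.

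Ftl1 encodes the light chain, which lacks that centre and helps the iron core form. It had 8881, 9521 and 8625 CPM with ASPS-A1, against 5347, 5790 and 5770 CPM in control. The groups did not overlap, and Ftl1 rose 1.60-fold (log2 fold change 0.68 ± 0.05 SE, adjusted p = 1.32e-16, edgeR). Its rank by mean CPM was 3 with ASPS-A1 and 6 in control. Other genes of the GENCODE annotation share 47.9% of the Ftl1 exon length, none of them a row of this table, so the Ftl1 count is less certain.

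The chains moved by different amounts. The library ratio of Fth1 to Ftl1 counts was 0.940, 0.913 and 0.942 with ASPS-A1, against 0.565, 0.547 and 0.545 in control. The ratios did not overlap, and the log2 difference of 0.75 gave p = 0.1 in a two-sided exact permutation test (n = 3 per group), which is the lowest value this design allows. Per kilobase of transcript, Fth1 averaged 9028 CPM per kb with ASPS-A1 and 3350 in control, and Ftl1 averaged 9307 with ASPS-A1 and 5822 in control. On that length-corrected scale the heavy chain stood near the light chain with ASPS-A1 and well below it in control.

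Together the chains held 1.63%, 1.68% and 1.57% of all counts with ASPS-A1, against 0.898%, 0.947% and 0.962% in control. Mean shares were 1.63% ± 0.0531 with ASPS-A1 and 0.936% ± 0.0337 in control (SD, n = 3 each, exact permutation p = 0.1, the smallest possible). Rows named for other ferritin genes or copies added almost nothing. Ftl1-ps2, a copy of Ftl1, had 5, 4 and 3 counts with ASPS-A1 and 4, 5 and 4 in control. The 7 Fthl17 rows had 0 counts in all libraries, where 3 counts per library would be 0.106 to 0.163 CPM. Fth1 and Ftl1 have processed pseudogenes, and how reads that fit several places were counted is not given in the sources used here.

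Both ferritin transcripts are short, at 929 nt for Fth1 and 968 nt for Ftl1, and fold changes in these libraries leaned upward for short transcripts. Genes of the shortest length bin (195 to 1197 nt, 1135 genes) had a median log2 fold change of 0.47, and 64.7% of them were called higher. Fth1 stood above 96.0% of the genes in that bin and Ftl1 above 71.3%. After length and GC content were taken into the fit as offsets, Fth1 was 2.02-fold higher (adjusted p = 3.45e-37, edgeR) and Ftl1 1.24-fold higher (adjusted p = 2.76e-12, edgeR). The log2 fold change of Ftl1 was then 0.31.

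**Figure D2:**
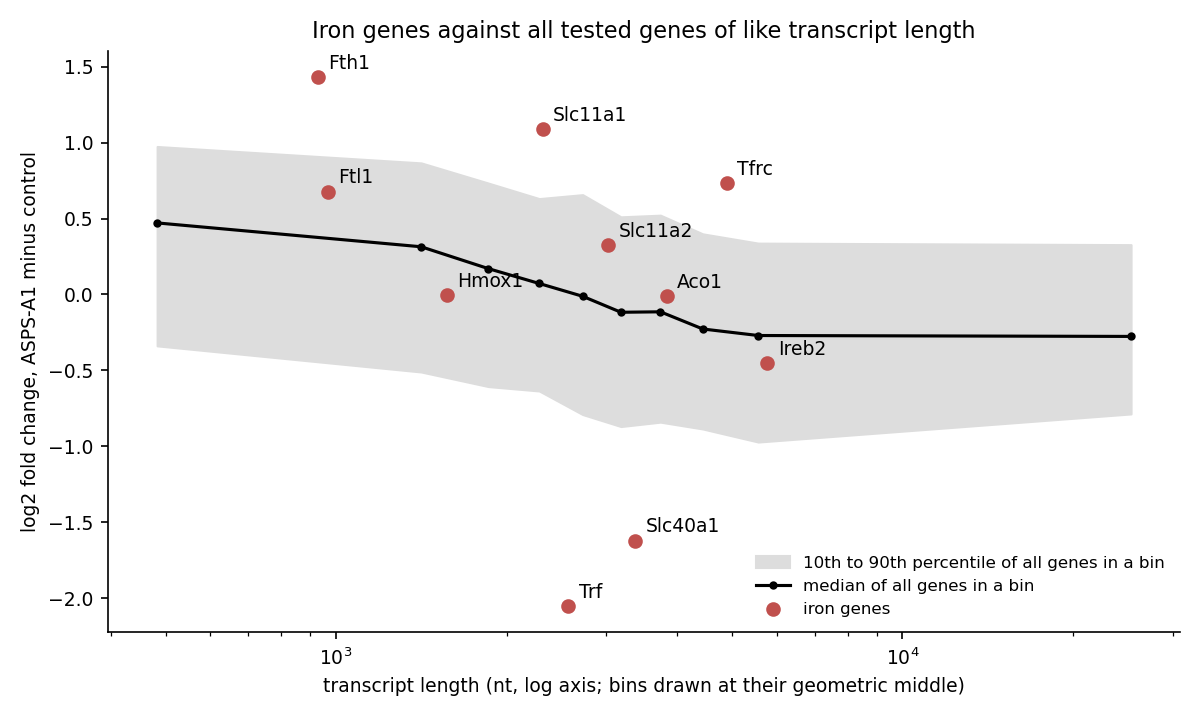
Log2 fold change (ASPS-A1 minus control) of the 10 iron genes (red) against transcript length on a log axis, with the median (line) and the 10th to 90th percentile (grey) of all tested genes in 10 length bins. Fth1, Slc11a1 and Tfrc lie above the grey band and Slc40a1 and Trf below it, while Ftl1, Slc11a2, Hmox1, Aco1 and Ireb2 lie inside it.

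Slc40a1 encodes ferroportin, the known exporter of iron from mammalian cells. It was a low-abundance message, with 45, 41 and 43 counts with ASPS-A1, against 157, 160 and 224 counts in control. In CPM these were 2.15, 2.23 and 2.28 with ASPS-A1, against 6.33, 6.20 and 7.94 in control. The groups did not overlap, and Slc40a1 fell 3.08-fold (log2 fold change −1.62 ± 0.19 SE, adjusted p = 5.84e-10, edgeR). It stood above only 2.28% of the genes in its own length bin, and with the length and GC offsets the log2 fold change was −1.58. The storage and export genes, which all carry the 5′ element shown above, moved in opposite directions.

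Tfrc encodes transferrin receptor 1, which brings iron-loaded transferrin into the cell. It had 251, 255 and 274 CPM with ASPS-A1, against 167, 160 and 143 CPM in control. Every ASPS-A1 library was above every control library, and Tfrc rose 1.66-fold (log2 fold change 0.73 ± 0.05 SE, adjusted p = 2.11e-16, edgeR). Genes of its length (4847 to 6384 nt) had a median log2 fold change of −0.27, and Tfrc stood above 96.8% of them. With the length and GC offsets its fold was 1.89.

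Trf encodes transferrin, the plasma carrier that the receptor binds, made chiefly by liver. Only traces of its message were counted, with 27, 37 and 23 counts with ASPS-A1, against 163, 168 and 157 counts in control. In CPM these were 1.29, 2.01 and 1.22 with ASPS-A1, against 6.58, 6.50 and 5.57 in control. Trf fell 4.13-fold, the largest change among the 10 genes (log2 fold change −2.05 ± 0.22 SE, adjusted p = 4.41e-11, edgeR). A readthrough gene model of GENCODE, Gm20425, covers most of the Trf exon length (76.7% lies under another gene) and is not a row of this table.

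Slc11a2 encodes DMT1, which moves ferrous iron out of endosomes into the cytosol. It had 114, 114 and 117 CPM with ASPS-A1, against 91.3, 93.1 and 91.3 CPM in control. The step was small and even, and Slc11a2 rose 1.25-fold (log2 fold change 0.32 ± 0.05 SE, adjusted p = 5.11e-07, edgeR). With scaling by library totals alone the log2 fold change was 0.13 (adjusted p = 0.0268, edgeR), less than the main value by over 1.5 times.

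Slc11a1 encodes NRAMP1, a metal transporter of the phagosome membrane in macrophages. It had 147, 159 and 157 CPM with ASPS-A1, against 74.3, 74.4 and 68.3 CPM in control. The groups were well apart, and Slc11a1 rose 2.13-fold (log2 fold change 1.09 ± 0.05 SE, adjusted p = 2.21e-22, edgeR). As background, BALB/c mice, from which the line derives, carry the loss-of-function allele of this gene, so the count shows a message and not a working transporter. It stood above 97.8% of genes of its length.

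Set side by side, the roles are described by count ratios in which Tfrc alone stands for import. Of the other import genes, Slc11a2 and Slc11a1 also rose, and Trf fell. The count of Tfrc over that of Slc40a1, import over export, was 117, 114 and 120 with ASPS-A1, against 26.4, 25.8 and 18 in control. That these did not overlap follows from Tfrc being higher and Slc40a1 lower in every ASPS-A1 library. The count of both ferritin chains over that of Tfrc, storage over import, was 68.5, 71.6 and 61.1 with ASPS-A1, against 50, 56.1 and 62.5 in control. Here the lowest ASPS-A1 library lay below the highest control library, so storage over import overlapped between groups. These ratios are given as descriptions, with no test.

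**Figure D3:**
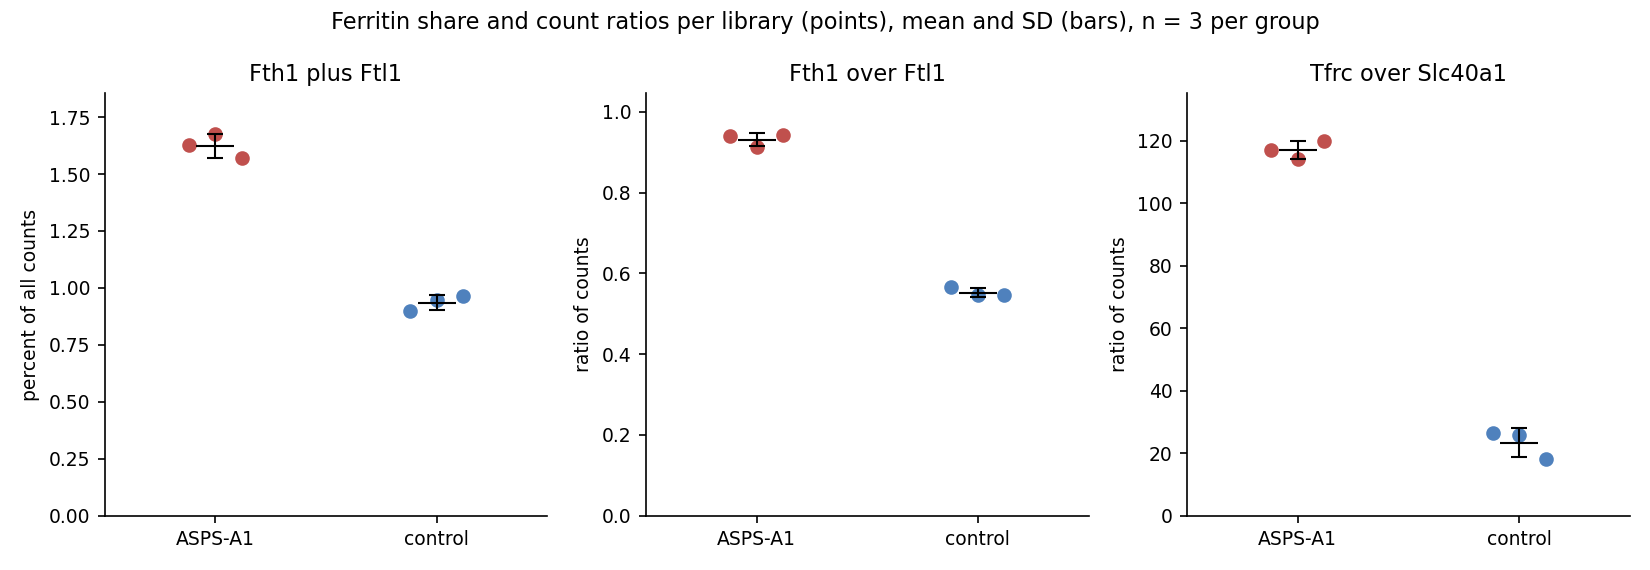
Per library (points; bars are the mean and SD, n = 3 each; axes start at 0), the percent of all counts on Fth1 plus Ftl1, the ratio of Fth1 to Ftl1 counts, and the ratio of Tfrc to Slc40a1 counts, with ASPS-A1 left of control. All 3 measures are higher in every ASPS-A1 library than in every control library. For Tfrc over Slc40a1 this follows from Tfrc being higher and Slc40a1 lower in each.

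Hmox1 encodes heme oxygenase 1, which opens the heme ring and frees its iron. It had 161, 166 and 160 CPM with ASPS-A1, against 165, 158 and 166 CPM in control. The groups overlapped, and the log2 fold change was −0.0032 ± 0.05 SE (adjusted p = 0.958, edgeR). This value depended on scaling: with the length and GC offsets it was −0.23 (adjusted p = 2.98e-06, edgeR), and with library totals alone −0.20 (adjusted p = 0.000429, edgeR). Genes of its length (1200 to 1665 nt) had a median of 0.31, and Hmox1 stood above 28.1% of them.

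Ireb2 encodes iron regulatory protein 2, which is degraded when iron is ample. It had 72.2, 64.5 and 78.5 CPM with ASPS-A1, against 98.2, 100.2 and 96.2 CPM in control. The groups did not overlap, and Ireb2 fell 1.37-fold (log2 fold change −0.45 ± 0.06 SE, adjusted p = 8.40e-09, edgeR). It is the longest transcript of the 10 at 5770 nt, and with the length and GC offsets the log2 fold change was −0.24 (adjusted p = 3.74e-05, edgeR). Genes of its length (4847 to 6384 nt) had a median of −0.27, and 52.6% of them were called lower. Ireb2 stood above 34.5% of them.

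Aco1 encodes iron regulatory protein 1, which turns into cytosolic aconitase when it carries an iron-sulfur cluster. It had 56.6, 61.1 and 54.0 CPM with ASPS-A1, against 57.1, 54.9 and 61.2 CPM in control. The groups overlapped, and the log2 fold change was −0.013 ± 0.07 SE (adjusted p = 0.871, edgeR). Its sign also depended on scaling, with 0.14 (adjusted p = 0.0374, edgeR) under the length and GC offsets and −0.21 (adjusted p = 0.00596, edgeR) with library totals alone.

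**Figure D4:**
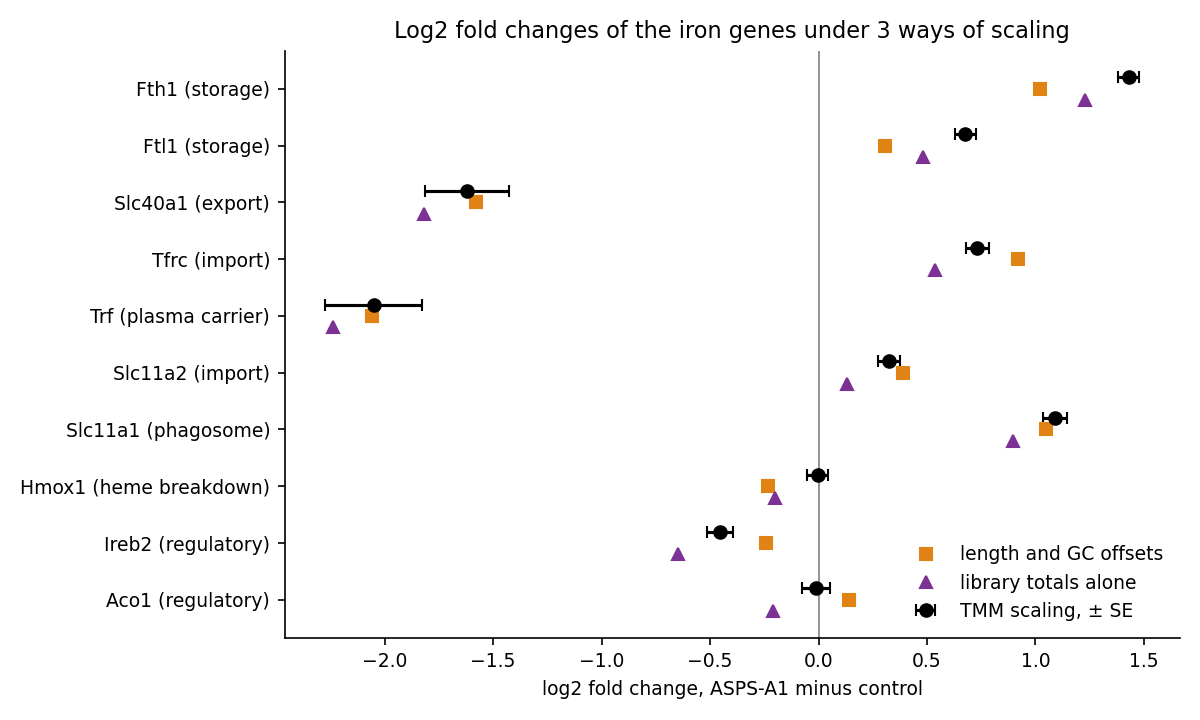
Log2 fold change (ASPS-A1 minus control) of each iron gene with TMM scaling (black, bars are the SE), with the length and GC offsets (orange squares) and with library totals alone (purple triangles). The sign is the same under the 3 scalings for 9 genes, and it changes for Aco1, while Hmox1 is near 0 only with TMM scaling.

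Per kilobase, the order of the levels was Ftl1, Fth1, Hmox1, Slc11a1, Tfrc, Slc11a2, Aco1, Ireb2, Slc40a1 and Trf with ASPS-A1. In control it was Ftl1, Fth1, Hmox1, Tfrc, Slc11a1, Slc11a2, Ireb2, Aco1, Trf and Slc40a1. With ASPS-A1, Slc40a1 (0.658 ± 0.0194 CPM per kb) and Trf (0.586 ± 0.171) differed by less than the SD of Trf. Their order there is unsure. With ASPS-A1 the mean levels of the ferritin chains were close, at 9307 ± 476 CPM per kb for Ftl1 and 9028 ± 306 for Fth1. All genes were counted in the same libraries, so these SDs do not measure the spread of a difference between genes. In control Tfrc (32.0 ± 2.60 CPM per kb) and Slc11a1 (31.2 ± 1.5) differed by less than the SD of either, and Slc11a2 (30.4 ± 0.347) was next. The ferritin chains lay far above the next gene in control, Hmox1 at 104 ± 2.97 CPM per kb.

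Beyond the 10 genes, 85 others of iron, heme and iron-sulfur handling were listed by role, of which 63 were abundant enough to test. Of these, 27 rose, 18 fell and 18 did not pass the threshold, or 20 rose and 28 fell with library totals alone. Their median log2 fold change was 0.088, and 71.4% were called. Among all genes tested, 65.3% were called, 32.4% higher and 33.0% lower, and the counts by role below are to be read beside those shares.

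Ferritin loading and turnover moved in both directions. Ncoa4, the receptor that sends ferritin to lysosomes, fell to 181 ± 5.83 CPM with ASPS-A1, against 278 ± 0.620 in control (log2 fold change −0.62, adjusted p = 4.56e-16, edgeR). The ferritin counts per Ncoa4 count were 96.8, 103 and 89.5 with ASPS-A1, against 30.2, 32.2 and 32.0 in control. This gap follows from both ferritin chains being higher and Ncoa4 lower in every ASPS-A1 library, and was not tested. Tax1bp1, an autophagy receptor that acts with Ncoa4, fell by 0.22 on the log2 scale, or by 0.42 with library totals alone. The iron chaperone Pcbp2 had a log2 fold change of 0.31, but 0.024 (adjusted p = 0.580, edgeR) with the length and GC offsets and 0.12 with library totals alone. Of the 5 tested members, 1 rose and 2 fell, or 1 rose and 4 fell with library totals alone and 0 rose and 3 fell with the offsets.

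Among 6 tested genes of iron uptake and metalloreduction, 1 rose and 1 fell (1 and 2 with library totals alone, 2 and 1 with the offsets). Lcn2, which binds bacterial iron carriers, rose to 1899 ± 17.5 CPM with ASPS-A1, against 182 ± 27.4 in control. Cyb561a3, a lysosomal reductase, fell to 19.5 ± 1.14 CPM with ASPS-A1, against 35.0 ± 0.269 in control (log2 fold change −0.85). The reductase genes Steap1 and Steap4 had 0 counts in all libraries, and Steap3, the endosomal reductase known from red cell precursors, averaged 0.174 CPM with ASPS-A1 and 0.446 in control.

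Of the partners of export and the hepcidin axis, only 3 of 11 genes were abundant enough to test, and 1 rose and 2 fell. Cp encodes ceruloplasmin, the copper oxidase that loads exported iron onto transferrin. It rose 2.48-fold, to 562 ± 32.0 CPM with ASPS-A1, against 227 ± 7.02 in control (log2 fold change 1.31 ± 0.05 SE, adjusted p = 6.25e-27, edgeR). Cp and Slc40a1, whose products act together at the cell surface, thus moved in opposite directions. Hfe, a hepcidin regulator, averaged 0.288 CPM with ASPS-A1 and 0.908 in control (adjusted p = 0.00468, or 0.0878 without control replicate 3, edgeR). Tmprss6, a hepcidin repressor in liver, averaged 0.476 CPM with ASPS-A1 and 1.21 in control (adjusted p = 0.00631, or 0.0537 without ASPS-A1 replicate 3, edgeR). Hephl1, Heph and the hepcidin genes Hamp and Hamp2 had 0 counts in all libraries.

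Heme handling was split, with 3 of 7 tested genes higher and 2 lower (3 and 4 with library totals alone). Flvcr1, known as a heme exporter, rose to 29.9 ± 0.400 CPM with ASPS-A1, against 20.5 ± 1.82 in control (log2 fold change 0.55, or 0.35 with library totals alone). Blvrb, a biliverdin reductase, rose to 101 ± 3.88 CPM with ASPS-A1, against 70.1 ± 4.02 in control (log2 fold change 0.52, or 0.16 with the length and GC offsets and 0.33 with library totals alone). Lrp1, the receptor for heme bound to hemopexin, fell to 112 ± 2.53 CPM with ASPS-A1, against 264 ± 2.87 in control (log2 fold change −1.24). Bach1, the heme-sensing repressor of Hmox1, had a log2 fold change of −0.25, or 0.0075 (adjusted p = 0.936, edgeR) with the length and GC offsets and −0.44 with library totals alone. The hemoglobin scavenger receptor Cd163 averaged 0.0495 CPM with ASPS-A1 and 0.168 in control.

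Iron-sulfur cluster assembly was mostly higher, where 15 of 25 genes rose, 3 fell and 7 were not called, with a median log2 fold change of 0.23. In shares, 60% were higher and 12% lower, beside 32.4% higher and 33.0% lower among all genes tested. With library totals alone 11 rose and 6 fell (median 0.036), and with the length and GC offsets 15 rose and 4 fell (median 0.30). The count that fell was 1 with DESeq2, and also when any of ASPS-A1 replicate 1, ASPS-A1 replicate 2 and control replicate 3 was left out. Ciao2b, of the cytosolic targeting complex, rose to 91.9 ± 4.86 CPM with ASPS-A1, against 47.6 ± 2.11 in control (log2 fold change 0.95, or 0.55 with the offsets). Nfu1, a late mitochondrial carrier of the cluster, rose to 52.2 ± 0.986 CPM with ASPS-A1, against 27.1 ± 2.62 in control (log2 fold change 0.94, or 0.52 with the offsets). Ndor1, an electron donor to the cytosolic pathway that shares 76.6% of its exon length with other genes, fell by 0.53 on the log2 scale. The mitochondrial iron importer Slc25a28 fell by 0.17, by 0.33 with the offsets and by 0.36 with library totals alone (TMM adjusted p = 0.0349, edgeR), a call lost with DESeq2 (adjusted p = 0.0682) and without ASPS-A1 replicate 1 or 2 or control replicate 1 or 3 (adjusted p from 0.0613 to 0.159).

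Heme synthesis had 3 of 10 tested genes higher and 5 lower (1 and 6 with library totals alone, 1 and 3 with the offsets), and 3 were lower without ASPS-A1 replicate 3. Alas1, the rate-setting enzyme outside red cell precursors, fell to 18.6 ± 1.21 CPM with ASPS-A1, against 34.1 ± 1.83 in control (log2 fold change −0.88, adjusted p = 1.67e-12, edgeR). Ppox, of the penultimate step, fell by 0.49 on the log2 scale. Tmem14c, a mitochondrial porphyrin carrier, had 0.51, or 0.084 (adjusted p = 0.159, edgeR) with the offsets and 0.32 with library totals alone. Alad, of the second step, had 0.36, or 0.071 (adjusted p = 0.446, edgeR) with the offsets and 0.16 (adjusted p = 0.0970, edgeR) with library totals alone.

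The list of transcription factors known to act on these genes also held Keap1, which is not one. Of its 7 tested genes, 3 were higher and 3, Keap1 among them, were lower (2 and 4 with library totals alone). Nfe2l2, which encodes the ferritin activator NRF2, fell to 57.0 ± 3.86 CPM with ASPS-A1, against 79.2 ± 1.91 in control. Keap1, which targets NRF2 for degradation, fell by 1.06 on the log2 scale, and the metal-sensing factor Mtf1 rose by 0.46, or by 0.74 with the offsets and 0.26 with library totals alone. Myc, known to act on Tfrc, rose to 26.1 ± 3.90 CPM with ASPS-A1, against 5.88 ± 0.571 in control. Among the genes named from these lists, other genes share 46.9% of the exon length of Pcbp2, 20.1% of Cyb561a3, 17.9% of Flvcr1, 11.7% of Alas1 and 11.3% of Keap1, so their counts are less certain.

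**Figure D5:**
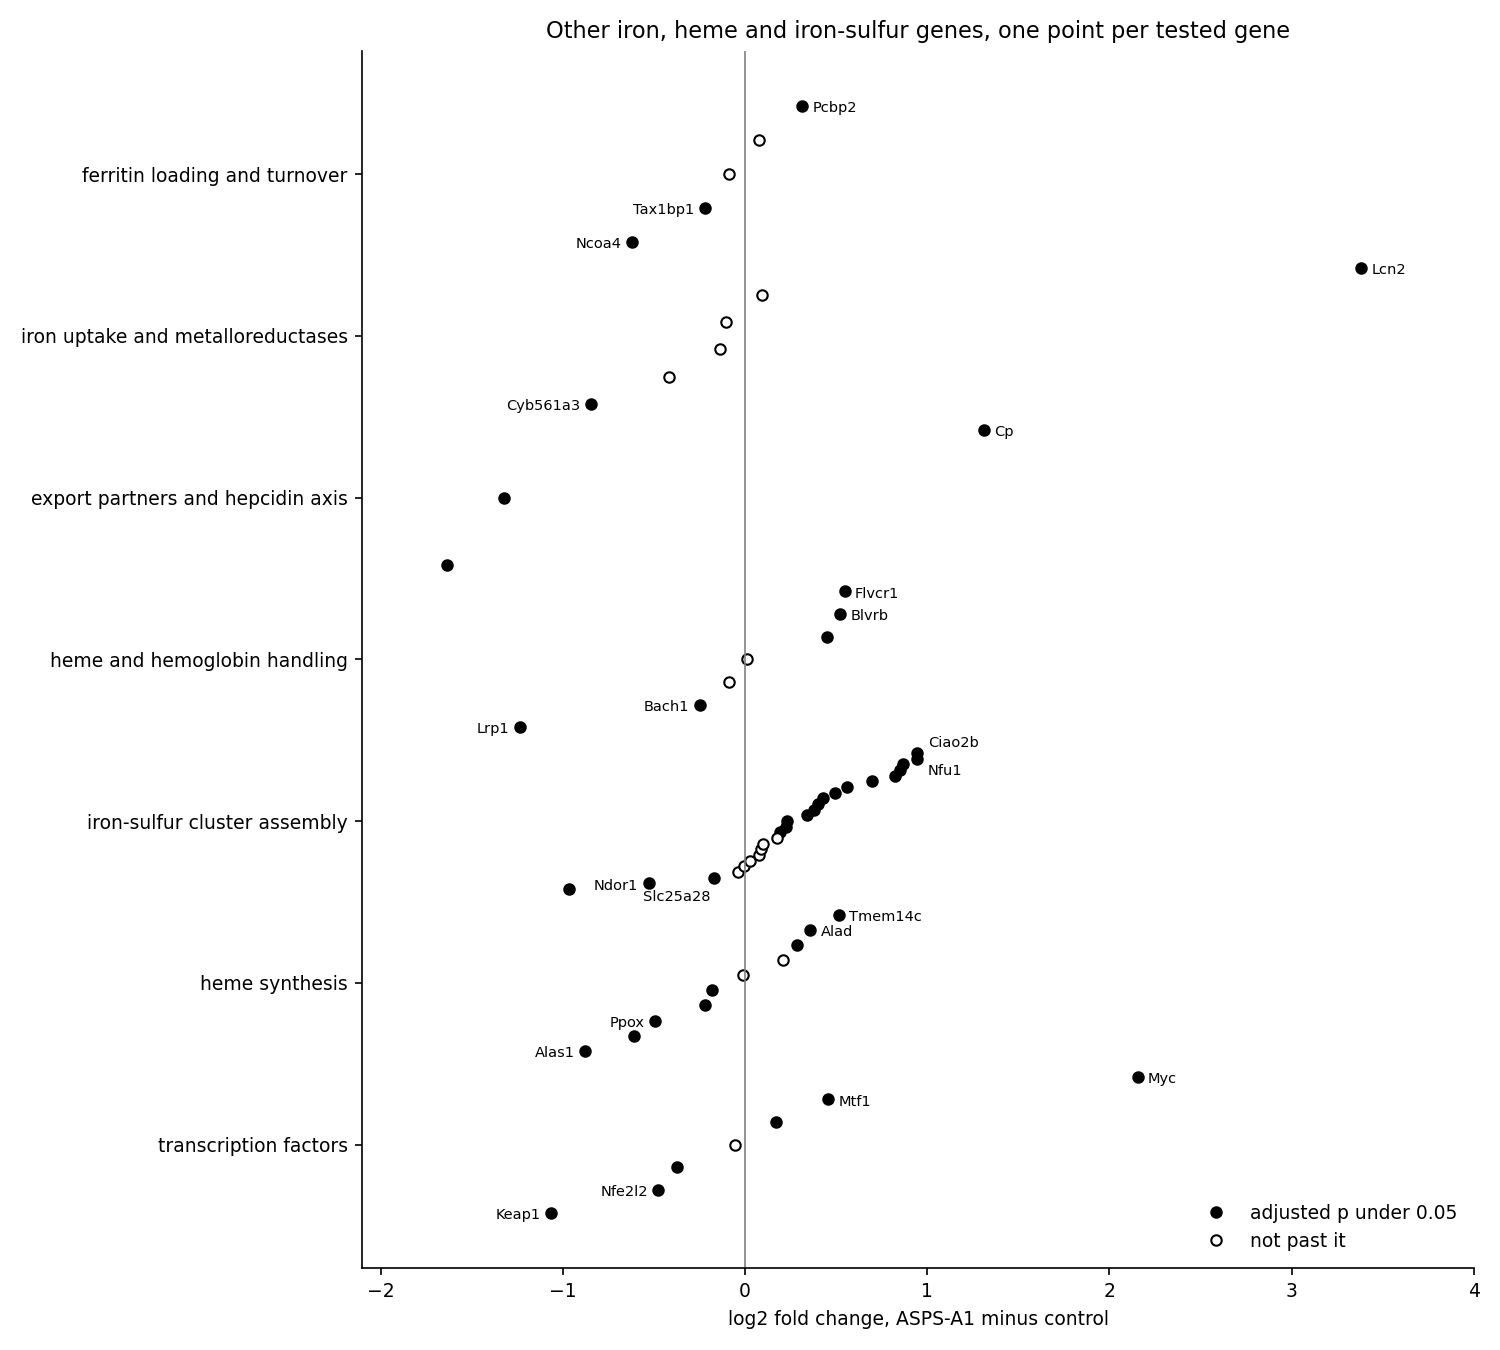
Log2 fold change (ASPS-A1 minus control) of the 63 other tested genes of iron, heme and iron-sulfur handling, 1 point per gene, in rows by role; filled points have an adjusted p under 0.05. Lcn2, Myc and Cp lie farthest to the right, and most of the iron-sulfur assembly genes lie right of 0.

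Across all genes with an element of the shape shown above, 14 with one in the 5′ UTR were tested, of which 8 rose and 3 fell (78.6% called, median 0.33). Of 72 tested genes with one in the 3′ UTR, 19 rose and 29 fell (66.7% called, median −0.064), beside 65.3% called among all genes. Those 65.3% were 32.4% higher and 33.0% lower. The 14 genes include Fth1, Ftl1 and Slc40a1, and the 72 include Tfrc, so these counts in part repeat the genes above. The match of letters is a description and does not show binding.

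Libraries held 19989318 to 22179544 counts with ASPS-A1 and 23113454 to 26137127 in control, a difference with an exact permutation p of 0.1 (n = 3 per group). The 10 macrophage markers were all counted, with summed levels of 3220 to 3340 CPM with ASPS-A1 and 2270 to 2300 CPM in control. Of them 7 rose (70%, beside 32.4% higher among all genes tested), and Csf1r, Ptprc and Mertk did not pass the threshold. Mertk was near the floor, at 0.652 CPM with ASPS-A1 and 0.714 in control. Erythroid markers, chosen because those cells are rich in Tfrc, summed to 0.326 to 0.795 CPM with ASPS-A1 and 0.851 to 0.968 in control. Markers of liver, which makes most plasma transferrin, summed to 0.212 to 0.489 CPM with ASPS-A1 and 0.155 to 0.815 in control, with Alb at 0. Markers of neutrophils, fibroblasts, epithelium and lymphocytes each summed to under 1 CPM in every library, and those of dendritic cells to 3.25 to 4.56 CPM with ASPS-A1 and 4.28 to 4.61 in control.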

How the data were processed

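The authors deposited raw counts per gene symbol in 6 columns, not normalized. Per the submitters' processing notes, the tools were HISAT2 2.1.0, fastp 0.22.0, DESeq 1.38.3 and HTSeq 0.9.1; build, annotation and strand setting: not given in the sources used here. Genes were kept with filterByExpr (minimum count 10, minimum total 15), scaled with TMM and fitted with the robust quasi-likelihood model of edgeR 4.0.16 (R 4.3.3). The SE is the absolute log2 fold change over the square root of F, and CPM use TMM-scaled library sizes. DESeq2 1.42.0 and limma 3.58.1 served as alternatives. The offsets remove lowess trends (span 0.3) on length and GC content, known for 97.2% of tested genes. Lengths came from the GENCODE M21 principal transcript.

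The fit was tested on simulated data. No library was a copy of another, as chi-square over its degrees of freedom ran at 4.27 to 6.95 within groups. The 10 genes and the lists were chosen with earlier results of these data known. All 10 are named; each other list gives its 2 largest called changes per direction, among genes whose groups do not overlap and whose higher group mean reaches 10 CPM. Genes named outside this rule, such as those at or near 0 counts, were chosen after their values were seen. No deposited column was left out.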

Additional observations from a re-analysis of the deposited data

How the results depend on the processing

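Of the 10 genes, 8 kept their direction and call under all 18 alternatives run, with log2 fold changes of 1.02 to 1.45 for Fth1, 0.31 to 0.71 for Ftl1, −1.82 to −1.5 for Slc40a1, 0.54 to 0.92 for Tfrc, −2.31 to −1.92 for Trf, 0.13 to 0.39 for Slc11a2, 0.90 to 1.13 for Slc11a1 and −0.65 to −0.24 for Ireb2. The uncalled Hmox1 had 0.0091 with relative log expression factors and 0.0090 with DESeq2, −0.20 with library totals alone and −0.23 with the length and GC offsets. Leaving out each library in turn gave Hmox1 −0.027 to 0.0077 and Aco1 −0.068 to 0.027. Aco1 had 0.14 with the offsets and −0.21 with library totals alone, where 5 of the 10 genes fell and 28 of the wider list fell. Bach1 had 0.0075 with the offsets. The cause of these shifts was not tested. Of the 10 genes, 5 rose and 3 fell under each library left out. The log2 difference of the ferritin ratio was 0.74 to 0.77 and the gain in ferritin share 0.66 to 0.72 percentage points when each library was left out. With a replicate block for the title number, 5 of the 10 genes rose and 3 fell, 3746 of all genes rose and 3807 fell, and the 10 genes kept their calls. Deviations of same-numbered libraries had correlations of −0.0323, 0.00723 and −0.00343, and own-number pairs were never the best correlated ones for ASPS-A1. With 3 libraries per group, this cannot show that same-numbered libraries share nothing more than a number. Counts of Trf and Slc40a1, at most 224 in a library, limit their precision.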
